A study of Mus musculus with 13 samples.

Results

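Polycomb repressive complex 2 (PRC2) is the enzyme complex that methylates lysine 27 of histone H3, and the accessibility of the genes that encode it was described by ATAC-seq in cultured mouse oligodendrocyte precursor cells (OPCs). ATAC-seq marks open chromatin by inserting sequencing adapters with the Tn5 transposase. The group was a list of 10 genes chosen by name from the 21951 protein-coding genes of the GENCODE M21 annotation of mm10: Ezh1, Ezh2, Eed, Suz12, Rbbp4, Jarid2, Aebp2, Mtf2, Phf1 and Phf19. The rule that selects them uses names and no measured value.

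PRC2 is built on a catalytic subunit, Ezh2 or its paralog Ezh1, held by Eed and Suz12 and joined by the histone-binding protein Rbbp4. A second set of proteins guides this core to chromatin. Jarid2 and Aebp2 define one form of the complex, and the Polycomb-like proteins Mtf2, Phf1 and Phf19 define the other. The product, H3K27me3, holds developmental genes silent, and histone H3.3 carrying the K27M substitution is known to inhibit PRC2 and to lower H3K27me3 across the genome. The peak lists described here measure accessibility at the PRC2 genes themselves and contain no measure of their RNA, their proteins or the mark.

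There were 13 libraries, each of a culture of its own, in 4 groups. Brainstem gave 3 control and 3 K27M libraries, and telencephalon gave 3 control and 4 K27M libraries. OPCs were immunopanned on PDGFRα from pups 5 to 7 days old after removal of endothelial cells and microglia, were pooled from litters by region and genotype, and were kept undifferentiated in proliferation medium. The labels name the mice AMGFAP-Cre;K27M. The study describes K27M as a conditional knock-in at the H3.3 gene H3-3a, activated by a human GFAP promoter-driven Cre that acts in neural stem and progenitor cells from embryonic life, with littermates as controls, on the FVB background. The cultures carried the numbers 41, 51, 59 and 61. Telencephalon is named cortex in the sample titles and covers cortex, corpus callosum and hippocampus. Pooled cultures of PDGFRα-selected cells are a model of dividing OPCs in a dish, and a change in the share of cells with an open site cannot be told apart from a change of accessibility in each cell.

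Each library has its own list of called peaks, between 16879 in control telencephalon culture 59 and 52466 in control brainstem culture 61. A peak carries a fold enrichment, its mean signal over the local background of the same library, a width in base pairs (bp), and a percentile, the share of peaks in that list with a fold at or below its own. The lists hold no read counts, so depth is unknown, and a missing call means only that no peak was called at the depth of that library. Promoters of the OPC markers Pdgfra, Olig1, Olig2 and Sox10 had a peak in 13 of 13 libraries and Cspg4 in 3. The promoters of the mature oligodendrocyte genes Mog and Mag had none, and that of Mbp had a peak in 12 libraries. Among genes of other cells, Csf1r and Cx3cr1 (microglia) and Tek (endothelium) had none, the remaining microglial and endothelial markers had 1 to 4, and the astrocyte genes Gfap, Aqp4 and Aldh1l1 had 13, 8 and 4. The neuronal genes Snap25 and Syt1 had 13 and Rbfox3 had 11. The part of other cell types in the results below was not tested.

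The reference promoters of 6 members are given first, because they show how unlike these start sites are and because they include the PRC2 promoters with and without a steady call. Each is the RefSeq sequence on GRCm38.p6, the assembly of mm10, from 250 bases before to 50 bases after an annotated start, read 5′ to 3′ on the strand of the gene. Capitals mark matches on either strand to the letters of a motif: the CCAAT box (CCAAT), the GC box (GGGCGG) and the NRF1 motif. Ezh2 lies at chr6:47594981-47595280 (minus strand), Ezh1 at chr11:101226414-101226713 (minus), Suz12 at chr11:79992856-79993155 (plus), Aebp2 at chr6:140624659-140624958 (plus), Phf1 at chr17:26932877-26933176 (plus) and Phf19 at chr2:34913927-34914226 (minus).
Ezh2: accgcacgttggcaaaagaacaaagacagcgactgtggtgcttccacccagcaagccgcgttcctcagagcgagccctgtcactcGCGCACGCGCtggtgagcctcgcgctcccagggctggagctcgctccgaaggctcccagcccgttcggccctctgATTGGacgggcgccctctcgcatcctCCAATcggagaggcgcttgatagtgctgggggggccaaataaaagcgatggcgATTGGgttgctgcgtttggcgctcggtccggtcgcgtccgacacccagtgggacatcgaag
Ezh1: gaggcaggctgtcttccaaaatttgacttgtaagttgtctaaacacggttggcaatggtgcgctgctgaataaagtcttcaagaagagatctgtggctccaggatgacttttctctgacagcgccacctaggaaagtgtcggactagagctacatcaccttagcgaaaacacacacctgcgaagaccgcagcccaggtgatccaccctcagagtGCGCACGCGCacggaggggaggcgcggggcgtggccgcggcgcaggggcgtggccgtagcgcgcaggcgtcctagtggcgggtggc
Suz12: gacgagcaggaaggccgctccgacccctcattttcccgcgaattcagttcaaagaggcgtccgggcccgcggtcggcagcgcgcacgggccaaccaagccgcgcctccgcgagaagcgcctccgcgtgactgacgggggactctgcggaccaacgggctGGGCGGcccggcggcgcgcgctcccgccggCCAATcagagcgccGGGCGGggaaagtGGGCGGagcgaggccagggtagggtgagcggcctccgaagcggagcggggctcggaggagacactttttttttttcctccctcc
Aebp2: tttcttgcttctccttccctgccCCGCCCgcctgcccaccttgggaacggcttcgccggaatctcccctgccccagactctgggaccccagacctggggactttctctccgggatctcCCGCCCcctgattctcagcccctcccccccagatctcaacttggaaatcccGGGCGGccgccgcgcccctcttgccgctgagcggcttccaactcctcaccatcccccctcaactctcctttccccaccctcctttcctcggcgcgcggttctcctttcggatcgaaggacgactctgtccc
Phf1: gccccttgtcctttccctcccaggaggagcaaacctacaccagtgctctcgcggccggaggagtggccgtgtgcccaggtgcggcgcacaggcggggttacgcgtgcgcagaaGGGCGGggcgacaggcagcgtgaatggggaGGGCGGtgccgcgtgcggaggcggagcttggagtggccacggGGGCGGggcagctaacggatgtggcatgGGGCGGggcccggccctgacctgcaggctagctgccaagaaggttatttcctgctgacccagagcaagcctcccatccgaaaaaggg
Phf19: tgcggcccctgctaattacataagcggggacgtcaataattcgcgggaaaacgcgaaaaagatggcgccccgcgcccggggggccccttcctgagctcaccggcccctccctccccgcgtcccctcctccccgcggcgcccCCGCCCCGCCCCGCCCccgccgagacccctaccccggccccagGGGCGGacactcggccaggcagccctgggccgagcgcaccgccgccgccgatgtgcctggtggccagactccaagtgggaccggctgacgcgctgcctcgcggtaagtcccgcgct

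RefSeq entries matched 10 of 10 members, with 14 promoter entries in all, since Jarid2 and Mtf2 have 2 and Aebp2 has 3. A CCAAT box was present in a promoter of 7 members and in 37.4% of all 32851 RefSeq promoters of this length. A GC box was present in 7 members and in 35.7% of all promoters. A member was counted if any of its entries held the motif, while the shares are per single promoter, so they are not directly comparable. For Aebp2 and Mtf2 the CCAAT box was only in an entry that lay under a peak in 0 libraries. The NRF1 motif was found in Ezh1 and Ezh2 and in 4.6% of all promoters, and both paralogs hold it as the same 10 letters. The E2F letters GGCGGGAA (2.19% of all promoters), the CRE letters TGACGTCA (1.79%) and the ETS letters CCGGAAGT (3.89%) were found in no member window. Only these exact letters were searched, and other spellings of the same motifs were not, so their absence does not mean that such sites are missing. In the Phf19 window, 3 GC boxes run into each other and form 2 overlapping pairs. A match describes the letters and not a bound site.

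Among the GC-rich windows described next, base composition did not follow the calls. The Suz12 window had 71.0% GC and 41 CpG dinucleotides, against medians of 52.7% and 7 over all promoters, and lay under a peak in 13 libraries. The Phf19 window had 74.3% GC and 38 CpG dinucleotides, and no library called a peak on it. The Phf1 window, with 68.7% GC and 4 GC boxes, lay under a peak in 5 libraries. The Aebp2 window shown, with 65.7% GC, lay under a peak in 9. The entries with the lowest GC were rarely called. The other Aebp2 entries, with 48.0% and 50.7% GC, lay under a peak in 1 and 0 libraries. The second Mtf2 entry, with 45.7%, did so in 0. The Eed entry, next with 54.7%, lay under a peak in 13. A relation of base composition to detection was not tested.

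Most PRC2 promoters were open in every culture. A promoter was taken as 2 kb before to 1 kb after any annotated transcription start, and the strongest peak overlapping it stood for the gene. Ezh2, Eed, Suz12, Rbbp4, Jarid2, Aebp2 and Mtf2 had a promoter peak in 13 of 13 libraries, 7 of 10 members, and 42% of all protein-coding genes (9211 of 21951) did so. Ezh1 was called in 12 of 13, Phf1 in 6 and Phf19 in 3. The number of members called ran from 7 in control telencephalon culture 59, the shortest list, to 10 in control brainstem culture 61 and K27M telencephalon culture 41. When each list was reduced to its 16879 most significant peaks, Ezh2, Eed, Suz12, Rbbp4, Jarid2 and Mtf2 were still called in 13 libraries. Under that reduction Ezh1 and Aebp2 were each called in 4 libraries, and Phf1 and Phf19 in none. The 42% belongs to the full lists, and no share of all genes is given for the reduced ones.

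**Figure D1:**
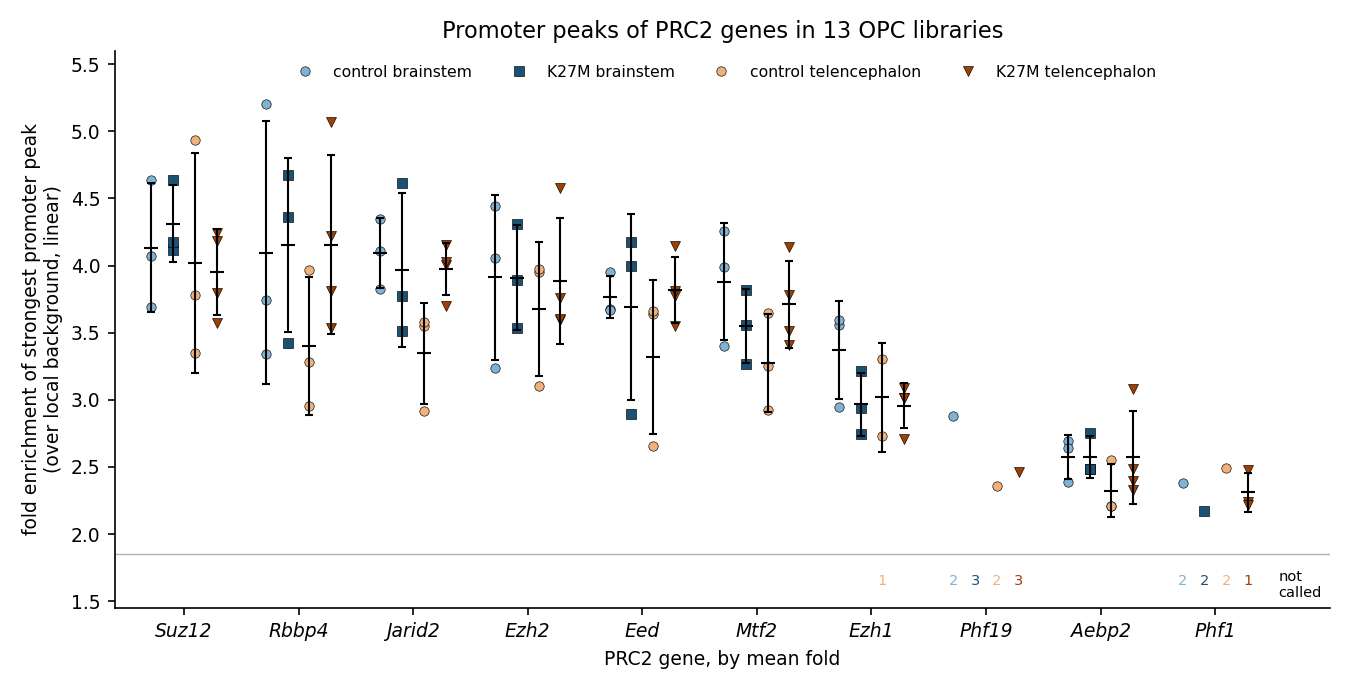
Fold enrichment of the strongest promoter peak (vertical axis, ratio to local background) for each of the 10 PRC2 genes, with 1 point per library in the 4 groups and the mean and SD of each group where it has 2 or more calls. Numbers under the line count libraries without a call. Suz12 has the highest mean, 4.09, Aebp2 and Phf1 have the lowest, 2.51 and 2.33, and among the 7 genes called in every library the genotypes overlap within each region except for Jarid2 in telencephalon.

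Ezh2, the main methyltransferase of dividing cells, had 1 constant promoter peak, within chr6:47594096-47595877, whose merged middle lay 0.35 kb inside the gene start. Its fold was 4.06, 3.24 and 4.44 in control brainstem and 4.31, 3.89 and 3.53 in K27M brainstem. It was 3.95, 3.10 and 3.98 in control telencephalon and 3.59, 4.58, 3.76 and 3.60 in K27M telencephalon. The genotypes overlapped in both regions, and over all libraries the fold was 3.85 ± 0.44 (SD, n = 13). Its peak was also among the wider ones, 1375 to 1672 bp. Further annotated starts of Ezh2, inside the gene, were called in at most 4 libraries.

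Ezh1, the paralog known to be kept in cells that have left the cycle, had a weaker and narrower peak within chr11:101225251-101226882. Its fold was 2.95, 3.56 and 3.60 in control brainstem and 2.94, 3.21 and 2.75 in K27M brainstem. It was 2.73 and 3.31 in the 2 control telencephalon libraries with a call, and 3.09, 3.02, 3.01 and 2.71 in K27M telencephalon. The groups overlapped in both regions. Its mean was 3.07 ± 0.30 (SD, n = 12). In the 12 libraries that called both paralogs, Ezh2 was above Ezh1 in 11, with a mean log2 difference of 0.35 ± 0.20 (SD). The exception was control brainstem culture 59.

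The core scaffold gave the strongest promoter of the set. Suz12, which holds the complex together, had a peak within chr11:79992317-79994088 with a fold of 4.07, 3.69 and 4.64 in control brainstem and 4.12, 4.64 and 4.17 in K27M brainstem. In telencephalon it was 3.78, 3.35 and 4.93 in control and 3.80, 4.19, 4.24 and 3.57 in K27M. All 13 values lay between the percentiles 84.0 and 97.6 of their own lists. Genes called in every library, 9211 in all, were ranked by mean log2 fold after each library was centred on its median promoter. In this rank of fold, used below as well, Suz12 stood at 80.8%, counted upward from the weakest gene.

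Eed, which binds H3K27me3 and stimulates the enzyme, had a fold of 3.68, 3.67 and 3.95 in control brainstem and 4.00, 4.17 and 2.90 in K27M brainstem. In control telencephalon it was 3.64, 2.66 and 3.66, and in K27M telencephalon 3.55, 4.15, 3.77 and 3.81. The lowest value came from control telencephalon culture 59, where Eed stood at percentile 28.2 of its list. Across libraries the mean was 3.66 ± 0.44 (SD, n = 13), and the rank among genes called in every library was 56.9%.

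Rbbp4, a histone-binding protein found in several chromatin complexes besides PRC2, had the widest spread of fold, 3.97 ± 0.70 (SD, n = 13). It was 3.74, 3.34 and 5.20 in control brainstem and 4.67, 4.36 and 3.43 in K27M brainstem. In control telencephalon it was 2.96, 3.28 and 3.97, and in K27M telencephalon 3.81, 5.07, 4.22 and 3.53. The Rbbp4 peak overlapped the promoter of its neighbour Zbtb8os in 13 of 13 libraries, with nearest starts 325 bp apart, and peaks cannot divide the signal between them.

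Jarid2, which recruits PRC2 to chromatin and tunes its activity, had 3 promoter peaks. The peak at the 5′ starts, 1.37 kb into the gene, and that at an internal start 110.7 kb in were both called in 13 libraries, and the peak 3.96 kb in was called in 12. The 5′ peak was the strongest in 8 libraries and the internal one in 5. The strongest had a fold of 4.11, 3.83 and 4.34 in control brainstem and 4.61, 3.77 and 3.51 in K27M brainstem. It was 3.55, 2.91 and 3.58 in control telencephalon and 4.01, 4.15, 4.03 and 3.70 in K27M telencephalon, where the genotypes did not overlap. Non-overlap of the deposited folds in this direction was found for 2.2% of genes called in every library, and after centring each library on its median promoter the Jarid2 values overlapped. These values come from either of the 2 sites, whichever was stronger in a library. At the 5′ site alone the telencephalon folds overlapped, with 3.55, 2.71 and 3.58 in control and 4.01, 4.15, 3.15 and 3.28 in K27M. At the internal site they did not, with 3.18, 2.91 and 3.27 in control and 3.76, 3.92, 4.03 and 3.70 in K27M. The share of all merged peaks with such non-overlap was not computed. Set against the library median promoter fold, the internal values overlapped. K27M culture 51 (3.92) lay below its median of 4.03, and control culture 59 (2.91) lay at its median of 2.91. By limma on merged peaks the centred difference was 0.01 (95% interval -0.18 to 0.20) at the 5′ site and 0.19 (-0.05 to 0.43) at the internal one. The library medians themselves ran from 2.91 in control telencephalon culture 59 to 4.10 in control brainstem culture 61.

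Aebp2, a zinc finger protein that supports binding of the complex to nucleosomes, had a broad and low peak. Its fold was 2.51 ± 0.24 (SD, n = 13), at a rank of 1.74% among genes called in every library, while its width ranked at 89.6%. The width was 2651, 1988 and 2084 bp in control brainstem and 1535, 1966 and 1001 bp in K27M brainstem. It was 1640, 738 and 2182 bp in control telencephalon and 1661, 2144, 1885 and 904 bp in K27M telencephalon. The brainstem groups did not overlap, with K27M narrower, which held for 3.27% of all genes tested, and after centring they overlapped. The limma log2 difference was -0.51 with a 95% interval from -1.31 to 0.29. In K27M telencephalon culture 61 the strongest call was at another start, 18.6 kb into the gene.

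The Polycomb-like genes, which bring PRC2 to CpG-rich DNA, covered the whole range of detection. Mtf2 had a peak in 13 libraries, with fold 3.40, 4.25 and 3.99 in control brainstem and 3.82, 3.56 and 3.27 in K27M brainstem. It was 3.25, 2.92 and 3.64 in control telencephalon and 3.52, 4.14, 3.78 and 3.41 in K27M telencephalon. These deposited values overlapped, and after centring the telencephalon groups did not, with K27M higher, as for 2.24% of genes tested.

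Phf1 was called in 1 of 3 control brainstem, 1 of 3 K27M brainstem, 1 of 3 control telencephalon and 3 of 4 K27M telencephalon libraries. Its fold in the libraries with a call was 2.38, 2.17, 2.49 and, in K27M telencephalon, 2.24, 2.47 and 2.22. These calls lay in the lower part of their lists, between the percentiles 2.63 and 25.5. By genotype, 4 of 7 K27M and 2 of 6 control libraries had the call (two-sided Fisher's exact test p = 0.592, adjusted p = 1.00). Of the 962 genes called in 5 to 8 libraries, 0% passed after Benjamini-Hochberg adjustment of the Fisher's exact test, and 12 had an unadjusted p under 0.05.

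Phf19 was called in 1 control brainstem, 1 control telencephalon and 1 K27M telencephalon library, with folds of 2.88, 2.36 and 2.46. The calls did not lie at its coding start, where 0 of 13 libraries had a peak. They lay within chr2:34902787-34903469, 10.9 kb inside the gene. They only reached the edge of the promoter window of noncoding transcripts, chr2:34903152-34906907, and lay downstream of their starts. With an overlap of at least 150 bp, 2 libraries kept the call. With a window of 500 bp on either side of each start, no library called Phf19 at all, while the counts of the other 9 members stayed as they were.

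Set in order of mean fold, the members fell into a close upper set and a spread lower one. Suz12, Rbbp4 (3.97), Jarid2 (3.85), Ezh2 (3.85), Eed (3.66) and Mtf2 (3.61) followed each other, and no neighbours in this order differed by more than the SD of their log2 difference within libraries. Mtf2 was above Ezh1 (3.07) in 12 of 12 libraries, by 0.26 ± 0.10 (SD). Ezh1 was above Phf19 (2.56 ± 0.28, SD, n = 3) in 3 of 3 libraries, and Phf19 above Aebp2 in 3 of 3. The place of Phf19 holds only for the 3 libraries with a call, at the edge of a window of noncoding transcripts, while Aebp2 was called in 13. Aebp2 was above Phf1 in 6 of 6 libraries that called both, by 0.18 ± 0.12 (SD). A comparison of fold between genes takes each peak over its own local background. The strongest peak is taken over all starts of a gene, which formed 1 separate promoter window in Rbbp4 and Phf1 and 7 in Ezh2. The number of starts can therefore enter the order. At its 5′ site alone Jarid2 had a mean of 3.72, below Ezh2.

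Width gave another order. Aebp2, Eed (rank 84.5%) and Ezh2 (82.8%) had wide promoter peaks, Rbbp4 (65.7%) and Suz12 (50.3%) stood near the middle, and Jarid2 (18.2%) and Mtf2 (14.8%) had narrow ones. The median of mean widths over the 9211 genes was 1145 bp. Suz12 paired a high fold with a middling width, and Aebp2 a low fold with a large one.

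The genotype comparison asked whether accessibility of the PRC2 genes differed in cells that carry the K27M histone. In brainstem no member differed by more than the spread between cultures. Centred log2 differences (K27M minus control) ran from -0.11 for Mtf2 to 0.11 for Suz12, and 5 of 7 members called in every library were higher in K27M, or 4 of 7 on the deposited scale. The 95% intervals of the members lay between 0.80-fold and 1.26-fold. In the limma fit with the culture number as a block, 0 of 7 members passed at an adjusted p of 0.05, as did 0% of the 9211 genes, of which 367 had an unadjusted p under 0.05. Every member had an adjusted p of 1.00. The median difference of the members was 0.04 against 0.00 over all genes.

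In telencephalon the differences ran from -0.07 for Suz12 to 0.19 for Rbbp4, again with 5 of 7 higher in K27M. On the deposited scale, where the median of all genes was itself 0.08 higher in K27M, 7 of 7 were higher. Rbbp4 had the largest member difference, 0.19 (SE 0.10, limma adjusted p = 0.999). The intervals of the members lay between 0.83-fold and 1.32-fold. By limma 0 of 7 members passed, as did 0% of all genes, with 370 genes at an unadjusted p under 0.05. The members had a median of 0.09 and all genes 0.00.

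**Figure D2:**
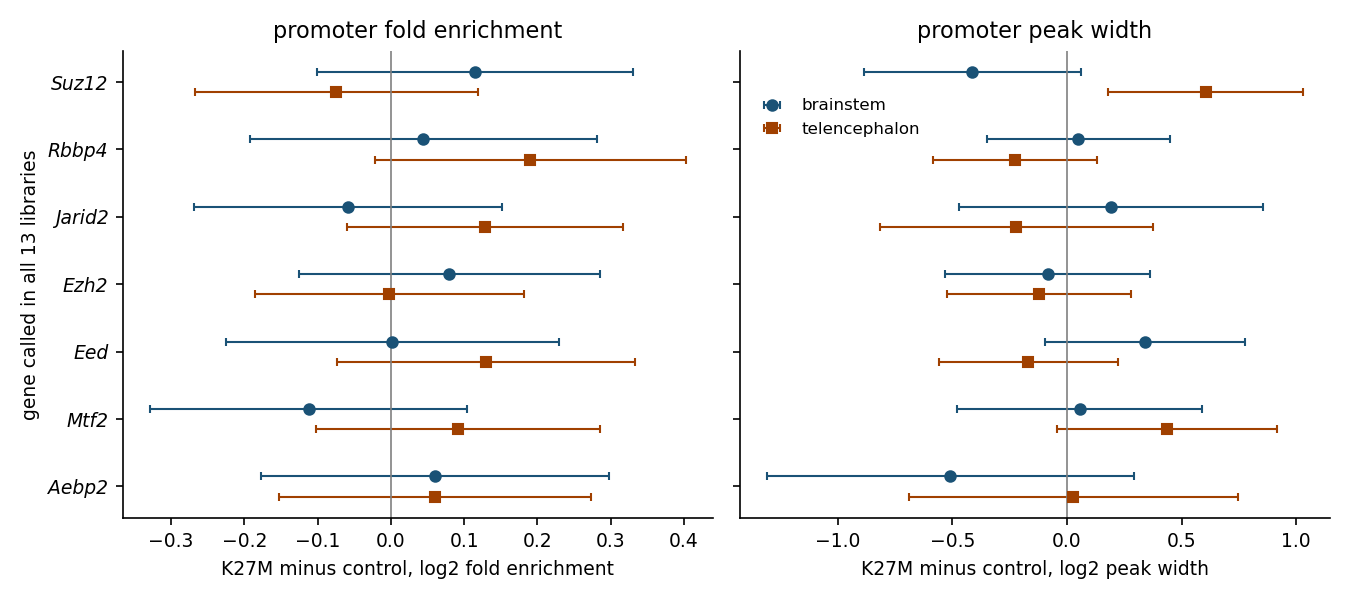
Difference between K27M and control (horizontal axis, log2) in the fold enrichment (left) and width (right) of the promoter peak of the 7 PRC2 genes called in every library, with points for brainstem and squares for telencephalon and bars for 95% intervals of the limma fit. For fold each interval covers 0, and for width that of Suz12 in telencephalon, 0.18 to 1.03, does not, at an adjusted p of 0.984.

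The genotype effect was also compared between regions. Brainstem minus telencephalon, the difference of the genotype effects ran from -0.20 (Mtf2) to 0.19 (Suz12), and was above 0 for 2 of 7 members, or for 1 of 7 on the deposited scale. That scale moved the median of all genes by -0.10 in this contrast. By limma 0 of 7 members and 0% of all genes passed, and 346 genes had an unadjusted p under 0.05.

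Ezh1 was fitted among genes called in at least 10 libraries, in which control telencephalon culture 59 is dropped for Ezh1. Its difference between K27M and control was -0.20 (95% interval -0.43 to 0.03) in brainstem and -0.10 (-0.34 to 0.14) in telencephalon. Both intervals cover 0, and the adjusted limma p was 1.00 in each.

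Regions were compared for the same promoters. Brainstem minus telencephalon, the log2 difference in fold ran from -0.01 for Ezh2 to 0.07 for Jarid2, with 5 of 7 members above 0. The intervals ran from -0.15 to 0.20. On the deposited scale, where the median of all genes was 0.07 higher in brainstem, 7 of 7 were above 0. By limma on the centred scale 0 of 7 members passed, against 0.0109% of all genes (1 of 9211), and 466 genes had an unadjusted p under 0.05.

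Peak width separated the genotypes at Suz12 in telencephalon, without passing the threshold over all genes. The Suz12 peak was 1048, 529 and 860 bp wide in control telencephalon and 1491, 1356, 1253 and 1612 bp in K27M telencephalon. The widths did not overlap, as for 2.65% of all genes tested in this direction, or 2.36% after centring. In brainstem the Suz12 peak was 1295, 1148 and 1233 bp wide in control and 1509, 964 and 620 bp in K27M, and the groups overlapped.

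After centring, the Suz12 width was 0.60 log2 units higher in K27M telencephalon (SE 0.19, limma adjusted p = 0.984) and differed by -0.41 in K27M brainstem (SE 0.21, adjusted p = 1.00). The difference between those effects was -1.02 (95% interval -1.63 to -0.41, limma adjusted p = 0.999), a contrast chosen after the values were seen. The telencephalon value did not pass the threshold over 9211 genes, as 0% of genes did, with 350 at an unadjusted p under 0.05 there and 356 in brainstem. The control telencephalon lists held 36054, 16879 and 45322 peaks and the K27M ones 39038, 52164, 30248 and 42238, and the part of list length in the Suz12 width was not tested beyond equal lists, where the difference was 0.63 (adjusted p = 0.958). Without control telencephalon culture 59 it was 0.51, at an adjusted p of 1.00.

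**Figure D3:**
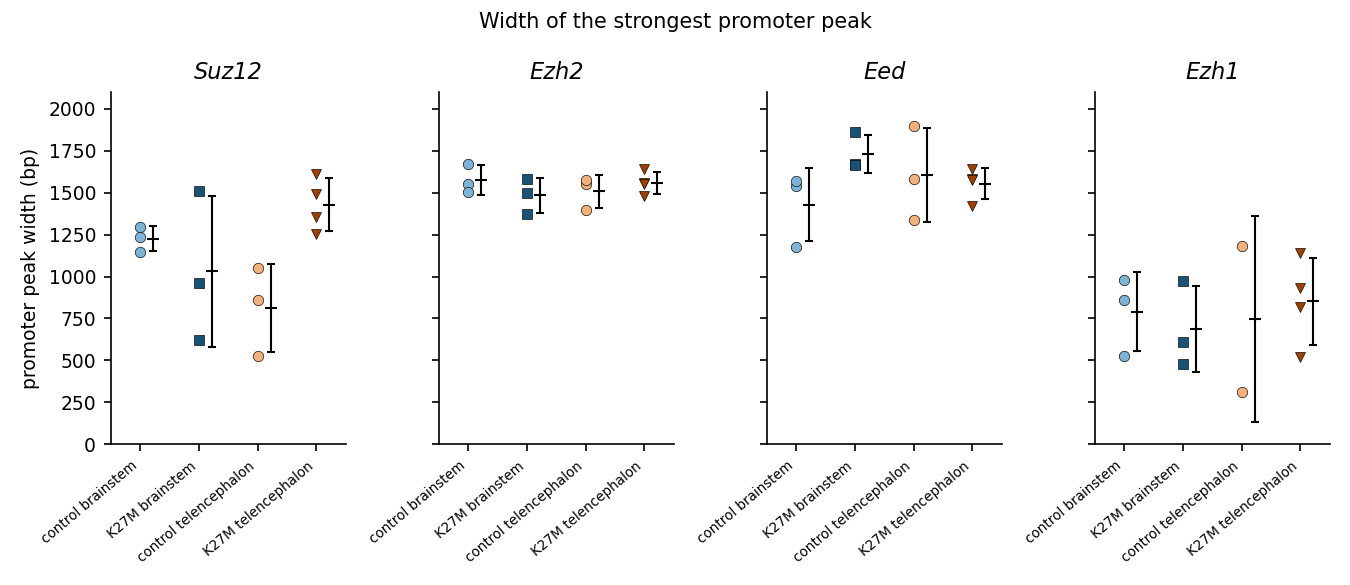
Width of the strongest promoter peak (vertical axis, bp) of Suz12, Ezh2, Eed and Ezh1, with 1 point per library in the 4 groups and bars for the mean and SD. The Suz12 peak is 529 to 1048 bp in control telencephalon and 1253 to 1612 bp in K27M telencephalon, while Ezh2 stays between 1375 and 1672 bp in every library.

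Eed gave the other width that separated genotypes upward. Its peak was 1538, 1177 and 1567 bp in control brainstem and 1668, 1665 and 1864 bp in K27M brainstem, which did not overlap, as for 2.06% of genes, and overlapped after centring. It was 1579, 1337 and 1898 bp in control telencephalon and 1583, 1639, 1420 and 1576 bp in K27M telencephalon, where the groups overlapped. In the limma fit the Eed difference was 0.34 in brainstem (95% interval -0.10 to 0.77) and -0.17 in telencephalon (-0.56 to 0.22). By limma 0 of 7 members passed for width in either region.

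Gene bodies were searched for peaks beyond the promoters. Calls sharing 1 bp or more were merged across the 13 libraries, which gave 99746 merged peaks, 13075 of them called in every library. Most member genes had little beyond their promoter. Eed, Mtf2, Phf1 and Phf19 had no merged peak outside a promoter, and Ezh1, Ezh2, Suz12 and Rbbp4 had 1 to 3, each in at most 2 libraries. Jarid2 and Aebp2 were the exceptions, with 21 and 6 merged peaks outside promoters. Of these, 10 and 2 were called in 1 library only. Jarid2 spans 192170 bp and Aebp2 55810 bp, against 65203 bp for Ezh2. The counts were not compared with those of other genes of such length.

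Jarid2 held 3 peaks outside promoters in every library. They lay within chr13:44751271-44752994, chr13:44814521-44816179 and chr13:44907383-44908824, at 22.7, 85.9 and 178.6 kb from the gene start. Their mean folds were 3.33 ± 0.28, 3.58 ± 0.46 and 4.30 ± 0.59 (SD, n = 13). The last was stronger on average than the promoter of the gene, at 3.85. A further peak at 138.6 kb, with a fold of 4.33 ± 0.53 (SD, n = 12), was missed only in control telencephalon culture 59.

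Aebp2 held 1 body peak in every library, within chr6:140666299-140668024 and 44.5 kb from its start. Its fold was 2.98, 2.73 and 3.93 in control brainstem and 3.65, 3.14 and 2.85 in K27M brainstem. In control telencephalon it was 2.97, 2.47 and 3.82, and in K27M telencephalon 2.56, 3.71, 3.23 and 3.97. Its mean of 3.23 ± 0.53 (SD, n = 13) exceeded that of the Aebp2 promoter, 2.51.

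**Figure D4:**
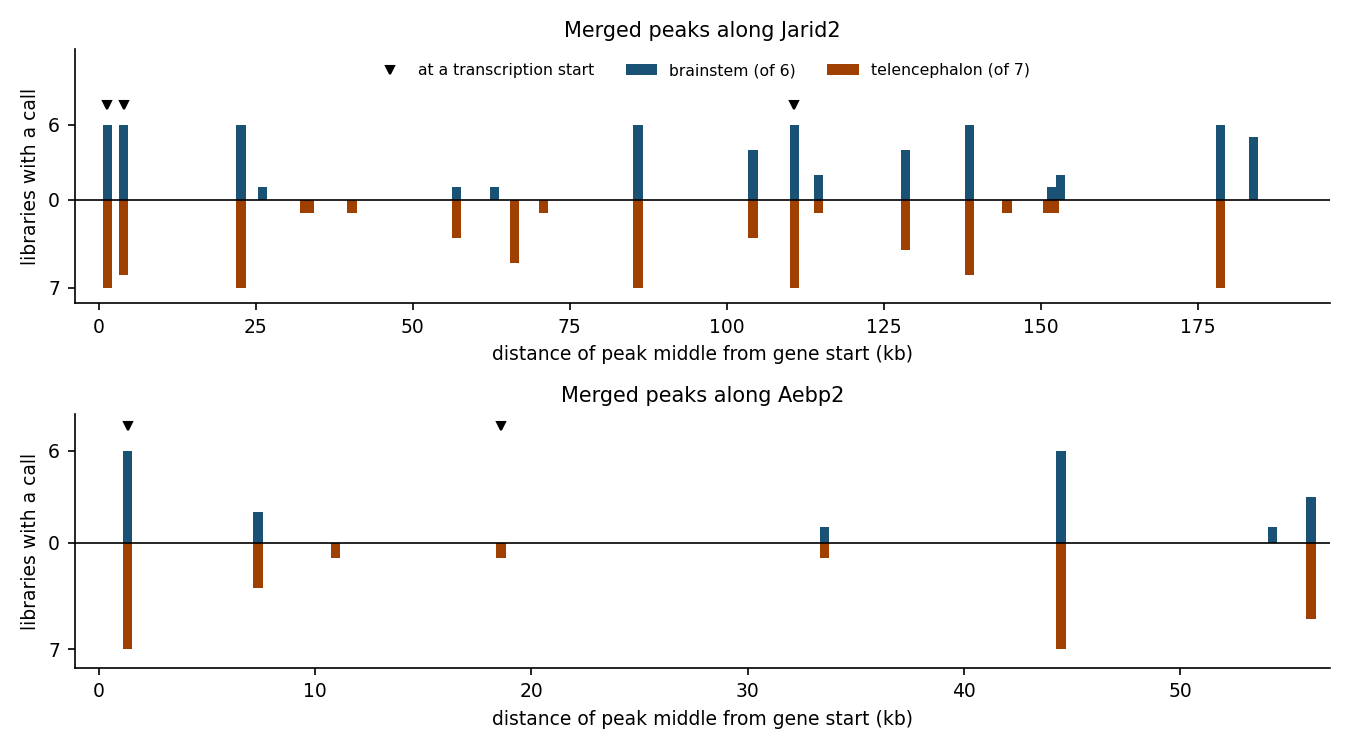
Merged peaks along Jarid2 (top) and Aebp2 (bottom), placed by the distance of their middle from the gene start (horizontal axis, kb), with bars for the number of libraries with a call, upward for the 6 brainstem and downward for the 7 telencephalon libraries. Jarid2 has full bars at 22.7, 85.9 and 178.6 kb besides its start sites, and bars of 5 libraries in 1 region only at 66.2 and 183.8 kb.

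The 12 merged peaks of member genes called in every library, in 7 genes, were compared by genotype. In brainstem 9 were higher in K27M and the log2 differences ran from -0.11 to 0.20. In telencephalon 8 were higher and the differences ran from -0.10 to 0.19. By limma 0 of 12 passed in either region, as did 0% of 13075 merged peaks, with 601 and 526 at an unadjusted p under 0.05. No merged peak of a member, of 36 in brainstem and 46 in telencephalon, was called in every library of one genotype and in no library of the other within a region. Over all merged peaks of the region, 0.075% were so called for K27M and 0.244% for control in brainstem. In telencephalon the shares were 0.223% and 0.0194%. With shares this low, the absence among members says nothing particular to them.

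Within Jarid2, 2 weaker peaks followed region, and both were chosen after their values were seen. The peak within chr13:44912884-44913707, 183.8 kb from the start, was called in 5 of 6 brainstem and 0 of 7 telencephalon libraries, with folds of 2.26 to 2.69. Of the 3474 merged peaks called in 5 libraries, 0.748% were called only in brainstem. The Fisher's exact test gave p = 0.00466 and an adjusted p of 0.84 over 11706 merged peaks. The peak within chr13:44795229-44796143, 66.2 kb from the start, was called in 0 of 6 brainstem and 5 of 7 telencephalon libraries, which were 1 of 3 control and 4 of 4 K27M. That direction was found for 2.1% of merged peaks called in 5 libraries, and the Fisher's exact p was 0.021 with an adjusted p of 1.00. By this test 0% of merged peaks passed for region and 0% for genotype, with 276 and 147 at an unadjusted p under 0.05. The smallest p by Fisher's exact test was 0.000583 in both, so the adjustment over 11706 merged peaks left little room to pass. The test took the libraries as independent and did not use the culture number. With region labels exchanged within culture numbers, 0 merged peaks passed, but the 216 arrangements allow no p below 0.00463.

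The number of peaks in the gene body, per 10000 called peaks, was compared by genotype with labels exchanged within region. Jarid2 held 5 to 14 body peaks a library, with means of 2.82 per 10000 in K27M and 2.68 in control (exact permutation p = 0.511). Ezh1 had means of 0.435 and 0.267 (exact permutation p = 0.117, adjusted p = 0.809). By the exact permutation test 0 of 10 members passed, as did 0% of 15021 genes, with 431 at an unadjusted p under 0.05. The smallest p that the 700 arrangements allow is 0.00143. With 15021 genes adjusted together, that limit left almost no room to pass, so no conclusion is drawn from the 0.

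Other Polycomb genes were measured for comparison. PRC1 is the complex that ubiquitinates histone H2A. A list of PRC1 and related genes had a promoter peak in every library at 15 of 22 genes, against 7 of 10 for PRC2. Of all protein-coding genes, 42% had one, a share that also applies to the smaller lists below. Bmi1, Cbx2, Cbx6, Cbx7, Phc2 and Sfmbt1 were called in 12 libraries and Pcgf2 in 11. All 4 other PRC2-associated genes found in the annotation (Rbbp7, Epop, Lcor and Lcorl) were called in 13. The H3K27 demethylase genes stood far apart, with Kdm6a in 13 libraries at a fold of 4.33 ± 0.44 (SD) and Kdm6b in 6 at 1.67 ± 0.08 (SD). In PR-DUB, which removes the ubiquitin placed by PRC1, Asxl1, Asxl2 and Asxl3 were called in 13 libraries and Bap1 in 12.

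The same genotype contrasts were read for those lists, and the difference between lists was not tested. By limma 0 of 15 PRC1, 0 of 4 other PRC2, 0 of 3 PR-DUB and 0 of 1 demethylase promoters passed in either region, and none had an unadjusted p under 0.05. PRC1 genes were higher in K27M in 9 of 15 cases in brainstem and in 6 of 15 in telencephalon, with medians of 0.00 and -0.02. The PRC2 members had medians of 0.04 and 0.09 in the same contrasts.

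**Figure D5:**
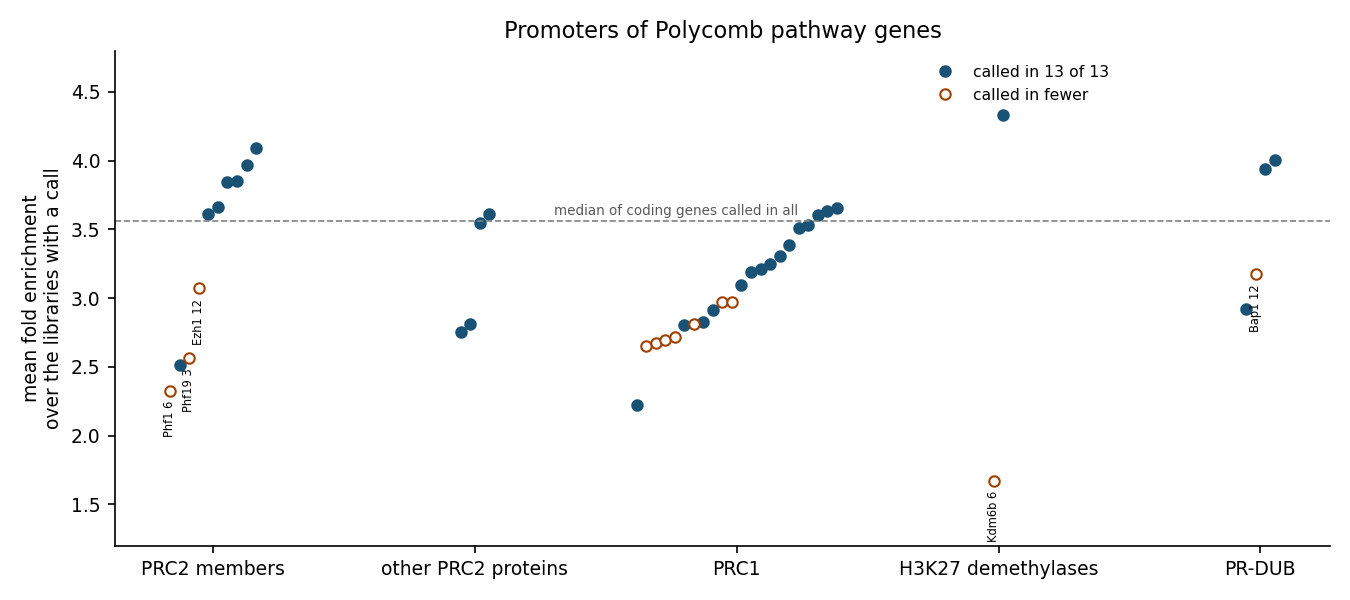
Mean fold enrichment of the strongest promoter peak over the libraries with a call (vertical axis) for genes of PRC2, its associated proteins, PRC1, the H3K27 demethylases and PR-DUB, with filled points for genes called in 13 libraries, open points for those called in fewer (with their number outside PRC1) and a dashed line for the median of all coding genes called in every library. The PRC2 members run from 2.33 (Phf1) to 4.09 (Suz12) about the median of 3.56, and the demethylase genes from 1.67 to 4.33.

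The genes whose centred promoter fold followed the catalytic subunits most closely across libraries were taken by Pearson's r, as a description. For Ezh1 these were Dusp22 (r = 0.907), Ybx1 (0.882) and B3gat1 (0.881), over 12 libraries and 10861 genes. For Ezh2 they were Ppib (0.860), Miga2 (0.833) and Errfi1 (0.780), over 13 libraries and 9210 genes. The points share their libraries, whose list lengths differ, and the highest of so many coefficients is large by selection.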

How the data were processed

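ATAC-seq of frozen OPC pellets followed the Omni-ATAC protocol. Per the labels and the study's methods, the authors used the nf-core ATAC-seq pipeline, with Trim Galore 0.6.7, cutadapt 3.4, BWA 0.7.17-r1188 to mm10 and MACS2 2.2.7.1, removed reads in blacklisted regions, and called broad peaks on each library alone. The peak cutoff is not given for ATAC-seq in the sources used here, and the lists end at a −log10 q of about 1.00. The deposited fold enrichment is a ratio to local background that was not scaled between libraries. The deposited −log10 p-value and −log10 q-value belong to each list alone, and the deposited score only served to check the layout. No file held counts, so depth and counting error are unknown.

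The members and the gene lists were chosen with earlier results of these data known. Promoters ran from 2 kb before to 1 kb after every start in GENCODE M21, which may not be the release of the study. All coordinates are 1-based on mm10. For genes called in 13 libraries, log2 fold or log2 width, centred on each library's median, was fitted with limma 3.58.1 in R 4.3.3 over the 4 groups, with culture number as an additive block, since the study's test accounted for matched cultures. Benjamini-Hochberg adjustment ran over all genes tested, at a threshold of 0.05. Deviations of same-numbered libraries from their group means correlated by 0.06 on average within regions (5 pairs, -0.10 to 0.21) and 0.09 across them (11 pairs, -0.08 to 0.28). Between groups, differently numbered libraries had means of -0.02 within regions (16 pairs, -0.24 to 0.20) and -0.03 across them (31 pairs, -0.23 to 0.33). The ranges overlap and the difference was not tested, so the pairing rests on the study's methods. Replicates are separate cultures of pooled litters.

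Detection in 5 to 8 libraries was compared with Fisher's exact test and body peaks with an exact permutation test in Python 3.11.15 (SciPy 1.17.1). In their main form neither used the culture number. All tests were two-sided. The 10 members were all named. Other Polycomb genes were named when called in 1 to 12 libraries, body peaks when called in every library, and the 3 best-correlated genes for Ezh1 and Ezh2. The 4 associated Polycomb genes and the demethylase and PR-DUB genes called in every library are named beyond that rule. Tested on simulated data for the brainstem contrast (9211 genes), the fit recovered 84.5% of genes changed 1.5-fold and 0% of those changed 1.2-fold. Alternatives covered the block, scaling, percentile, equal lists of 16879 peaks, a p-value of at most 1e-10, a window of 500 bp, an overlap of 150 bp, genes called in at least 10 libraries, all annotated genes and each library left out. The width contrast between regions and the merged-peak detection tests were added after seeing the data. Ezhip was not matched in the annotation by that symbol. Of the cell type markers, 1 is not reported here.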

Additional observations from a re-analysis of the deposited data

Results flagged for a closer look

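In K27M telencephalon the promoter fold of Ezh2 was 4.576 in culture 51 and between 3.59 and 3.76 in the other 3 libraries, a gap that exceeded Dixon's 95% limit for 4 samples. The library median promoter fold of culture 51 was also the highest of that group, 4.03 against 3.38 to 3.45. After centring on that median, the 4 Ezh2 values ran from 0.07 to 0.18 and stood below the limit.

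The width of the Jarid2 promoter peak in K27M telencephalon was 1157 bp in culture 61 and 744 to 799 bp in the other 3 libraries, which also exceeded the limit. The strongest peak was the internal one in cultures 59 and 61 and the 5′ one in cultures 41 and 51, so these widths belong to 2 sites. Over 8 genes, 32 groups of values were compared with it, and 2 exceeded it. Chance alone marks about 1 group in 20.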

How the results depend on the processing

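In the 1466 comparisons of a single member or member peak with an alternative, 1466 stayed on the same side of the threshold, and the smallest adjusted p was 0.597. The sign changed in 173 of them, all among values that had not passed. That smallest value came from the gene body permutation test without control brainstem culture 61, which allows no p below 0.00286 over 14826 genes. The 1466 include the exact tests of detection and gene bodies, which had little room to pass. For these rows the count says nothing of stability. For PRC2 members the number passing was 0 under every alternative that could test them. Over all genes, the number passing for region was 1 with the main settings. It was 0 with the fold as deposited, 0 with percentiles, 0 with peaks of p at most 1e-10, 0 with a window of 500 bp and 2 with all annotated genes, and 1 to 3 when each library was left out in turn (2 without K27M brainstem culture 41 or control telencephalon culture 51, 3 without K27M telencephalon culture 41). For width in brainstem it was 0 to 1 with a library left out (1 without control brainstem culture 61), and for the width contrast between regions, added after seeing the data, 0 to 1 (1 without control brainstem or control telencephalon culture 61). For merged peaks in brainstem it was 1 with p at most 1e-10 and 0 to 1 with a library left out (1 without control brainstem or K27M telencephalon culture 59). The cause was not tested. Without the replicate block, that is without pairing by culture number, the promoter counts were 0 in brainstem, 0 in telencephalon, 0 for their contrast and 1 for region, with 338, 365, 321 and 389 genes at an unadjusted p under 0.05, and the block changed no member's call. With the replicate block, promoter detection gave 0 calls for genotype and 0 for region, and body peaks 0, but the 32 arrangements that the block leaves for genotype allow no p below 0.0312 and the 216 for region none below 0.00463, so these counts say nothing of stability. A p of at most 1e-10 left 760 genes called in every library and no member among them. Depth is unknown, so the differences between lists in Ezh1, Phf1 and Phf19 calls cannot be set against it. Changes of 1.2-fold were not recovered in the simulated brainstem comparison.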
